A study of Mus musculus with 6 samples.

Results

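The TNF superfamily was taken as the genes of the deposited table whose symbol is Tnf or is built from Tnfsf or Tnfrsf and a number, which gave 32 of the 22105 genes with a gene identifier. They comprise 12 ligands and 20 receptors. The rule used no measured value. The cells were 4T1, a mouse mammary carcinoma line, and the assay was mRNA sequencing. In the nanoparticle group, 3 libraries came from cells exposed for 24 h to particles named CM-PEG-PLGA@DOX/R848, at a dose equal to 2 µg/mL of doxorubicin, and in the PBS group 3 libraries came from cells given phosphate-buffered saline for the same time. The particles carried doxorubicin, an anthracycline that poisons topoisomerase II, and R848 (resiquimod), a small molecule that activates the innate immune sensors TLR7 and TLR8. Empty particles and free drugs were not analysed here, so the effects of the carrier and of each drug cannot be told apart. The labels do not state whether replicate libraries are separate cultures. The p-values therefore rest on a spread among libraries that may be technical.

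TNF superfamily ligands are mostly membrane proteins that work as trimers and can be shed by proteases. Their receptors fall into those with a cytoplasmic death domain, which can recruit FADD and caspase-8 or the adaptor TRADD, those that bind TRAF adaptors and feed into NF-kB and MAP kinases, and decoys that bind ligand without passing on a death signal. In carcinoma cells the family is known for the death receptor of TRAIL, for TNF itself as an inflammatory cytokine, and for ligands that costimulate lymphocytes.

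Values are FPKM (fragments scaled for transcript length and library size), so levels can be compared between genes. The libraries summed to 468387 to 472870 FPKM in the nanoparticle group and to 421544 to 425231 FPKM in the PBS group, and the table gives no depth. Genes above 0 numbered 18319 to 18509 in nanoparticle libraries and 13544 to 13808 in PBS libraries, while 10596 to 10622 genes in nanoparticle libraries and 10618 to 10631 in PBS libraries reached 1 FPKM. Of the epithelial markers, Krt8 averaged 343 and 215 FPKM and Krt18 averaged 685 and 514 FPKM in nanoparticle and PBS libraries, whereas Epcam was under 1 FPKM, at 0.639 and 0.551 FPKM. The summed level of 12 macrophage and myeloid markers was 44.1 to 49.6 FPKM in nanoparticle libraries and 23.0 to 26.7 FPKM in PBS libraries. Most of that sum was Cd68 and Cd14, which other cells also make, and Adgre1, C1qa, C1qb and Fcgr1 were at 0 in every PBS library. Of the 12, 4 were tested, and Cd68, Csf1r and Mpeg1 were higher and Cd14 lower with nanoparticles. Csf1r had 1.22 to 1.87 FPKM against 0.0272 to 0.0504 FPKM with PBS. Mpeg1 had 1.67 to 1.88 FPKM against 0.00922 to 0.162 FPKM, and the filter of the test, given below, fixed both directions. The other 8 were under 1 FPKM. In 6 of them every nanoparticle library was above every PBS library, as in 48.9% of all detected genes below the filter. The summed level of 11 lymphocyte markers was 3.16 to 3.43 FPKM against 1.19 to 1.29 FPKM. Lck, the only lymphocyte marker tested, had 1.49 to 2.00 FPKM against 0.988 to 1.19 FPKM, most of the PBS sum. The other 10 were under 1 FPKM in every library, and 7 of the 11 were at 0 in every PBS library. The summed level of 7 endothelial and fibroblast markers was 6.78 to 8.22 FPKM against 29.1 to 29.4 FPKM, a fall carried by Pdgfra and Cdh5. The other 5 of these were under 1 FPKM in every library and higher in every nanoparticle library than in any PBS library. The part of any of these in the results on the superfamily was not tested, and in such bulk samples fewer cells of a type and less RNA per cell cannot be told apart.

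The comparison asked which superfamily transcripts differed between cells given the loaded particles and cells given PBS. Of the 32 members, 15 reached 1 FPKM in 3 or more libraries, the filter of the test. Among these, 8 rose, 6 fell and 1 did not pass, at an adjusted p under 0.05 by limma with Benjamini-Hochberg adjustment over all 10863 tested genes. Of all tested genes, 86.4% were called, 40.5% as higher and 46.0% as lower. The members' median log2 fold change was 0.45, and that of all tested genes was -0.06. By size, 5 members rose and 3 fell at least 2-fold, where 10.2% and 13.5% of all tested genes did so. The direction of 4 tested members was fixed by the filter, because Tnf and Tnfsf4 were under 1 FPKM in every PBS library and Tnfsf13 and Tnfrsf14 were under 1 FPKM in every nanoparticle library. Of the remaining 11, 6 rose, 4 fell and 1 did not pass, and 3 rose and 1 fell at least 2-fold. All fold changes below are on the log2(FPKM + 1) scale, which understates the change of low genes.

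**Figure D1:**
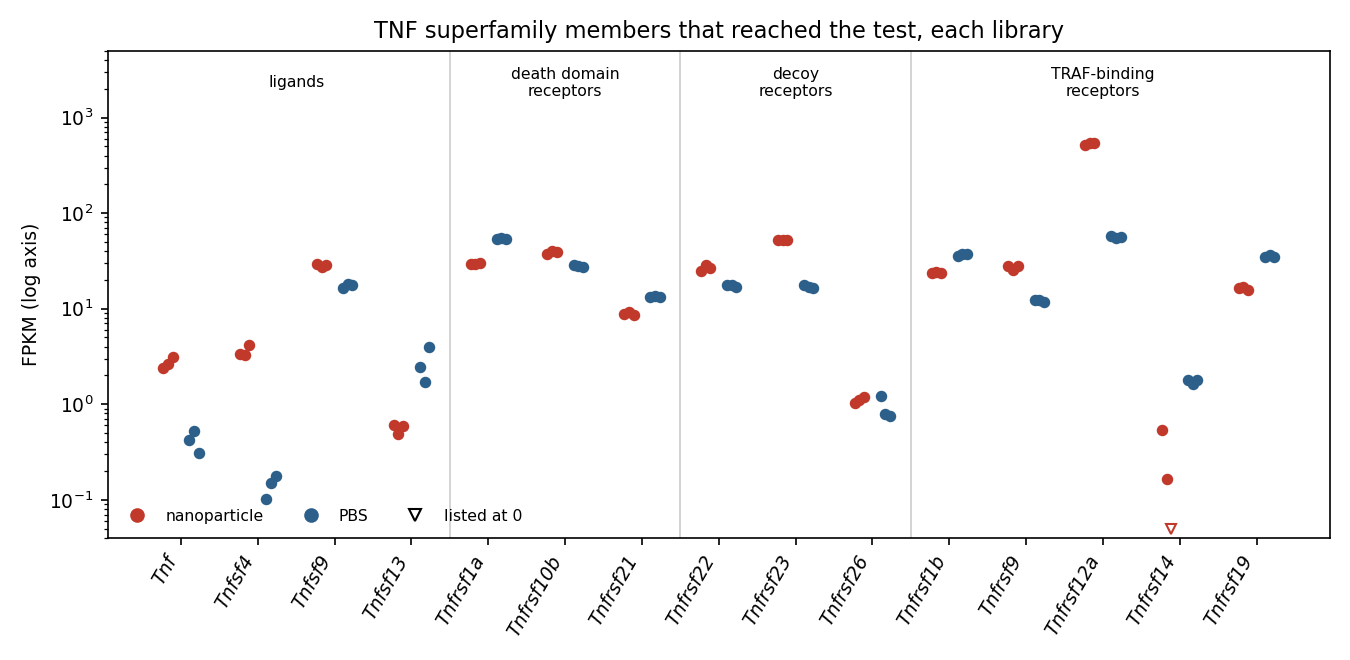
FPKM (log axis) of the 15 tested members in each library, nanoparticle (red) left of PBS (blue), by role. Tnfrsf12a stands highest, at 520.1 to 544.1 FPKM in nanoparticle libraries against 54.5 to 57.3 FPKM in PBS libraries, and the open triangle is Tnfrsf14, listed at 0 in nanoparticle library 3.

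The receptor Tnfrsf12a had the largest log2 fold change of the tested members at a pseudocount of 1. With a pseudocount of 0.1 it had 3.25, below the 3.94 of the low ligand Tnfsf4. Tnfrsf12a encodes Fn14, the receptor of the cytokine TWEAK, which binds TRAF adaptors and is known to be inducible by growth factors and injury. It lies at GRCm38 chromosome 17, 23675445 to 23677468, on the minus strand, and its level was 520.1, 539.3 and 544.1 FPKM in the nanoparticle libraries, against 57.3, 54.5 and 56.5 FPKM in the PBS libraries. All 3 nanoparticle libraries were far above every PBS library, and the ratio of the means was 9.53. The log2 fold change was 3.23 with a standard error of 0.0293 (adjusted p = 2.37e-12, limma), which ranked 48 from the top among the 10863 tested genes. Tnfrsf12a was the gene with the 104th to 111th highest FPKM in nanoparticle libraries, against the 1102nd to 1177th in PBS libraries. Its ligand Tnfsf12 (TWEAK) was listed at 0, 0 and 0.0367 FPKM with nanoparticles and 0.0845, 0.0416 and 0.0583 FPKM with PBS. The annotated read-through gene Tnfsfm13 covers all 9600 bases of Tnfsf12 on the same strand, and no source used here says how reads in both were counted, so these values are uncertain.

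Tnfrsf12a took a larger share of the receptor transcripts with nanoparticles. Summed over the 20 receptors, the level was 744.3 to 770.5 FPKM in nanoparticle libraries and 270.9 to 274.9 FPKM in PBS libraries. Tnfrsf12a made up 69.9% to 70.6% of that sum with nanoparticles and 19.8% to 20.9% with PBS. Without it, the other receptors summed to 224 to 230 FPKM with nanoparticles and 214 to 220.4 FPKM with PBS, so the rises and falls among them nearly offset each other in the sum.

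**Figure D2:**
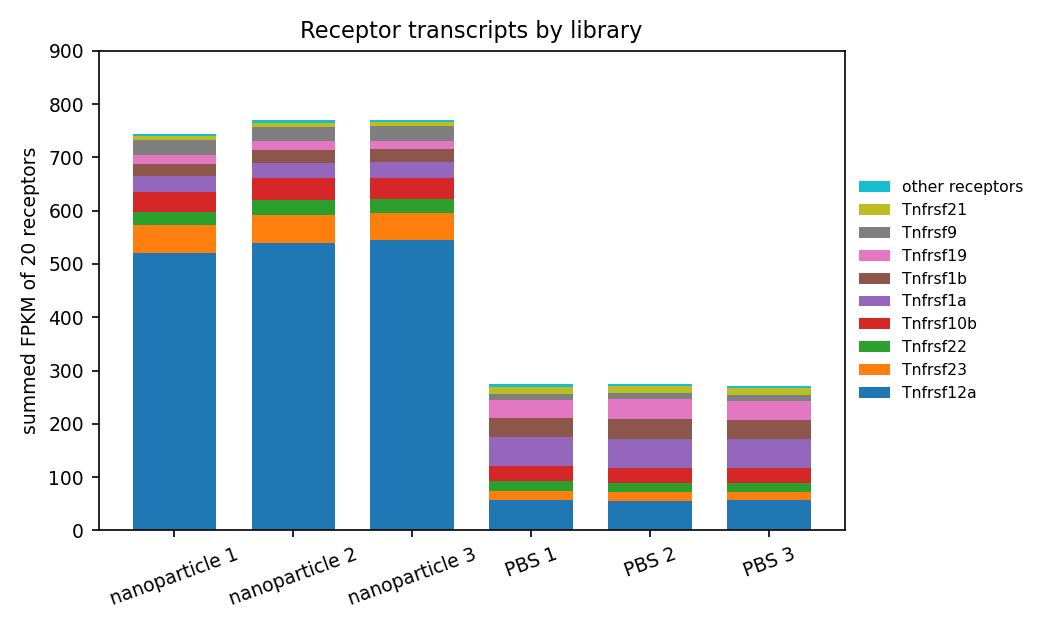
Summed FPKM of the 20 receptors in each library, stacked by gene, nanoparticle libraries left of PBS libraries. The blue segment at the base is Tnfrsf12a, 69.9% to 70.6% of the sum in nanoparticle libraries and 19.8% to 20.9% in PBS libraries, and the segments above it add up to 224 to 230 and 214 to 220.4 FPKM.

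The promoter windows below run from 250 bases before to 50 bases after the annotated start (RefSeq, GRCm38.p6), which was found for 25 of the 32 members and 10 of the 15 tested ones. They are shown for Tnfrsf12a, the member with the highest level in both groups, and for Tnfrsf9 and Tnfrsf1b, a rising and a falling TRAF-binding receptor whose windows hold a match to a searched motif. Capitals mark matches, and sequences run 5′ to 3′ on the strand of the gene.
Tnfrsf12a, chr17:23677400-23677699, minus strand: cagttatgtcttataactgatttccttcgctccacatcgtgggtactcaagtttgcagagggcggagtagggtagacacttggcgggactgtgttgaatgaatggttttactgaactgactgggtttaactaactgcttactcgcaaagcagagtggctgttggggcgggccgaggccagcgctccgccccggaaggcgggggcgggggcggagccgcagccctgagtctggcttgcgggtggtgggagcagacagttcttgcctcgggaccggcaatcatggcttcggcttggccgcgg
Tnfrsf9, chr4:150927749-150928048, plus strand: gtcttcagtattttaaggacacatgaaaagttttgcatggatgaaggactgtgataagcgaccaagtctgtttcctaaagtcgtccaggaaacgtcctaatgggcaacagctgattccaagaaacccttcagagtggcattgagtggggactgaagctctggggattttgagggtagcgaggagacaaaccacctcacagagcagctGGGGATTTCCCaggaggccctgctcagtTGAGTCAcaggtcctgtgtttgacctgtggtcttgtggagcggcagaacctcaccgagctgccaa
Tnfrsf1b, chr4:145246821-145247120, minus strand: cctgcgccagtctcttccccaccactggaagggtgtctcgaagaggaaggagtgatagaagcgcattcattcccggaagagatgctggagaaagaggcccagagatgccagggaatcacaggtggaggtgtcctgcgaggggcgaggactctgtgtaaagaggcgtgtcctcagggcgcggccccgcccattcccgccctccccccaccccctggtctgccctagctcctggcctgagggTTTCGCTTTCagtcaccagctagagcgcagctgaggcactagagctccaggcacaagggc

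The motifs searched on both strands were the NF-kB consensus, AP-1 (TGANTCA), the core of the interferon-stimulated response element, which is GAAA and again GAAA after 2 bases of any kind, and the decamer of the p53 consensus. The NF-kB consensus was present in 8.46% of all 32851 windows, AP-1 in 7.81%, the interferon element core in 3.44% and the p53 decamer in 8.36%. The second of the 2 Tnfrsf9 windows held NF-kB matches between -43 and -33, which overlap each other, and an AP-1 match at -15 to -9, counted from the start site as 0. The Tnfrsf1b window held an interferon element core at -10 to -1, on the opposite strand. The Tnfrsf12a window held none of the 4. Of the 4 rising members with a window, 1 had an NF-kB match and 1 an AP-1 match, in both cases Tnfrsf9. Of the 6 falling members, 2 had an interferon element core (Tnfrsf1b and Tnfrsf14) and 1 had an AP-1 match (Tnfsf13). These matches describe letters in a short window and show no binding.

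Among ligands, Tnfsf9 was the most abundant in both groups. It encodes the ligand of CD137, a costimulatory receptor of T cells, and lies at chromosome 17, 57105325 to 57107757, on the plus strand. Its level was 29.1, 27.1 and 28.8 FPKM in nanoparticle libraries and 16.6, 18.1 and 17.8 FPKM in PBS libraries, with no overlap (log2 fold change 0.67 ± 0.0451 SE, adjusted p = 3.77e-07, limma). Tnfsf9 made up 74.4% to 78.9% of the summed ligand level with nanoparticles and 79.4% to 87.3% with PBS. The sum itself was 35.2 to 38.7 FPKM with nanoparticles and 19.8 to 22.4 FPKM with PBS.

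Tnf, the founding cytokine of the family, at chromosome 17, 35199381 to 35202007, was low but higher with nanoparticles. It stood at 2.37, 2.62 and 3.10 FPKM in nanoparticle libraries and at 0.422, 0.519 and 0.312 FPKM in PBS libraries, and the groups did not overlap. The ratio of the means was 6.46, and the log2 fold change was 1.38 (standard error 0.0947, adjusted p = 4.10e-07, limma). Tnfsf4, which encodes the T cell costimulator OX40L and lies at chromosome 1, 161395409 to 161418410, stood at 3.36, 3.28 and 4.18 FPKM in nanoparticle libraries and at 0.101, 0.150 and 0.176 FPKM in PBS libraries. The ratio of the means was 25.4, and the log2 fold change was 2.01 (standard error 0.0895, adjusted p = 1.81e-08, limma). With a pseudocount of 0.1 the log2 fold change became 2.45 for Tnf and 3.94 for Tnfsf4, and both changes had their direction set by the filter.

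Tnfsf13, which encodes APRIL, a survival factor of plasma cells, and lies at chromosome 11, 69682846 to 69685784, fell to 0.613, 0.483 and 0.594 FPKM in nanoparticle libraries, against 2.44, 1.71 and 3.96 FPKM in PBS libraries. The PBS libraries differed widely among themselves. All stood above the nanoparticle libraries, but the filter fixed this direction, as the gene was under 1 FPKM in every nanoparticle library. The log2 fold change was -1.20 ± 0.196 SE (adjusted p = 5.38e-04, limma), and -2.01 with a pseudocount of 0.1. This value is uncertain, because 57.3% of the 50-base stretches of the Tnfsf13 transcripts also occur in other genes, chiefly in the read-through gene Tnfsfm13 that joins Tnfsf12 to Tnfsf13. Tnfsfm13, which lies outside the rule, was listed at 0.250, 0.213 and 0.104 FPKM with nanoparticles and at 1.05, 0.727 and 1.42 FPKM with PBS. For Tnfsf12 the shared part was 46.8%.

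Of the 3 tested death domain receptors under the rule, 1 rose and 2 fell, where 40.5% of all tested genes rose and 46.0% fell. Death receptors under other symbols, such as Fas, are not counted here. Tnfrsf10b, the mouse death receptor of TRAIL, at chromosome 14, 69767472 to 69784411, stood at 37.5, 39.7 and 38.7 FPKM in nanoparticle libraries and at 28.3, 28.2 and 27.6 FPKM in PBS libraries. Its log2 fold change was 0.45 (standard error 0.0338, adjusted p = 8.47e-07, limma). Tnfrsf1a, the widely expressed receptor of TNF, at chromosome 6, 125349362 to 125362484, fell to 29.4, 29.7 and 30.3 FPKM in nanoparticle libraries, against 53.5, 54.4 and 53.3 FPKM in PBS libraries (log2 fold change -0.83 ± 0.0291 SE, adjusted p = 3.68e-09, limma). Neither gene's groups overlapped, and the spread within each group was small beside the difference.

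Tnfrsf21, the death receptor DR6, at chromosome 17, 43016555 to 43089189, fell to 8.78, 9.21 and 8.56 FPKM in nanoparticle libraries, against 13.1, 13.4 and 13.2 FPKM in PBS libraries (log2 fold change -0.53 ± 0.0444 SE, adjusted p = 1.74e-06, limma). It spans 72.6 kb, and its call was lost once the relation of fold change to genomic span and exonic length over all tested genes was removed (log2 fold change -0.07, adjusted p = 0.182, limma). Tnfrsf25, the receptor of the ligand TL1A, stayed at or under 0.162 FPKM in every library. The summed level of the 4 death domain receptors under the rule was 75.7 to 78.7 FPKM with nanoparticles and 94.1 to 96.1 FPKM with PBS.

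The receptor genes Tnfrsf22, Tnfrsf23 and Tnfrsf26 sit next to each other on chromosome 7. Tnfrsf23 lies at 143665809 to 143685872, Tnfrsf22 at 143634806 to 143649661 and Tnfrsf26 at 143607659 to 143628722, all on the minus strand. Tnfrsf22 and Tnfrsf23 bind TRAIL in the mouse but lack a death domain. Tnfrsf23 rose to 52.6, 52.6 and 51.9 FPKM in nanoparticle libraries, against 17.6, 16.9 and 16.5 FPKM in PBS libraries (log2 fold change 1.57 ± 0.0344 SE, adjusted p = 2.14e-10, limma). Tnfrsf22 rose to 24.9, 28.8 and 26.6 FPKM in nanoparticle libraries, against 17.9, 17.8 and 16.9 FPKM in PBS libraries (log2 fold change 0.58 ± 0.0529 SE, adjusted p = 3.43e-06, limma).

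The neighbours thus differed in size of change: the ratio of Tnfrsf23 to Tnfrsf22 was 1.83 to 2.11 in nanoparticle libraries and 0.950 to 0.982 in PBS libraries. The split of reads between them is uncertain, since 18.0% of the 50-base stretches of Tnfrsf23 and 27.4% of those of Tnfrsf22 occur in transcripts of other genes, chiefly of each other. The third gene of the cluster, Tnfrsf26, had 1.03, 1.11 and 1.20 FPKM in nanoparticle libraries and 1.23, 0.781 and 0.744 FPKM in PBS libraries. Its groups overlapped, and its log2 fold change of 0.15 did not pass (adjusted p = 0.203, limma). It passed as higher without PBS library 1 (0.26, adjusted p = 0.0275, limma). An antisense gene of the annotation, E230032D23Rik, overlaps all 3, and no source used here says whether reads were counted by strand.

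Set against Tnfrsf10b, the level of Tnfrsf22 and Tnfrsf23 together was 2.03 to 2.07 times that of the death receptor in nanoparticle libraries and at most 1.25 times in PBS libraries. Their ligand Tnfsf10 (TRAIL) did not reach the test. It was listed at 0.574, 0.646 and 0.687 FPKM with nanoparticles and at 0.0781, 0.119 and 0.0940 FPKM with PBS, and the groups did not overlap. Tnfrsf11b (osteoprotegerin), a soluble decoy for RANKL and TRAIL, was listed at 0 in every PBS library and at 0.0985 to 0.144 FPKM in nanoparticle libraries.

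Among the TRAF-binding receptors, 5 of 12 were tested, of which Tnfrsf12a and Tnfrsf9 rose and Tnfrsf1b, Tnfrsf14 and Tnfrsf19 fell. Of all tested genes, 40.5% rose and 46.0% fell. Tnfrsf9, which encodes CD137, at chromosome 4, 150914562 to 150946102, had 27.9, 25.4 and 27.7 FPKM in nanoparticle libraries and 12.3, 12.3 and 11.8 FPKM in PBS libraries (log2 fold change 1.09 ± 0.0449 SE, adjusted p = 1.04e-08, limma). The receptor and its ligand Tnfsf9 were both detected in every library and both higher with nanoparticles. The ratio of Tnfrsf9 to Tnfsf9 was 0.937 to 0.962 in nanoparticle libraries and 0.665 to 0.738 in PBS libraries. Camta1, on the opposite strand, overlaps 28781 bases of Tnfrsf9 and was listed at 0.811 to 1.03 FPKM with nanoparticles and 1.56 to 1.79 FPKM with PBS.

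Tnfrsf1b, the TRAF2-binding receptor of TNF, at chromosome 4, 145213463 to 145246870, fell to 23.3, 23.9 and 23.5 FPKM in nanoparticle libraries, against 35.6, 37.3 and 37.1 FPKM in PBS libraries (log2 fold change -0.61 ± 0.0332 SE, adjusted p = 7.02e-08, limma). Both TNF receptors were lower while Tnf itself, whose direction the filter fixed, was higher. The ratio of Tnfrsf1a to Tnfrsf1b was 1.24 to 1.29 with nanoparticles and at least 1.44 in every PBS library. Tnfrsf19, or TROY, a receptor of epithelial progenitors and of the nervous system, spans 82.6 kb at chromosome 14, 60963875 to 61046490. It fell to 16.3, 16.7 and 15.6 FPKM in nanoparticle libraries, against 34.4, 36.5 and 34.3 FPKM in PBS libraries (log2 fold change -1.07 ± 0.0411 SE, adjusted p = 6.76e-09, limma). Tnfrsf14, or HVEM, the receptor of the ligand LIGHT, at chromosome 4, 154921933 to 154928563, had 0.540, 0.167 and 0 FPKM in nanoparticle libraries and 1.80, 1.64 and 1.80 FPKM in PBS libraries (log2 fold change -1.18 ± 0.142 SE, adjusted p = 3.69e-05, limma; -2.84 with a pseudocount of 0.1). Nanoparticle library 3 listed it at 0 exactly, and the filter fixed its direction.

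**Figure D3:**
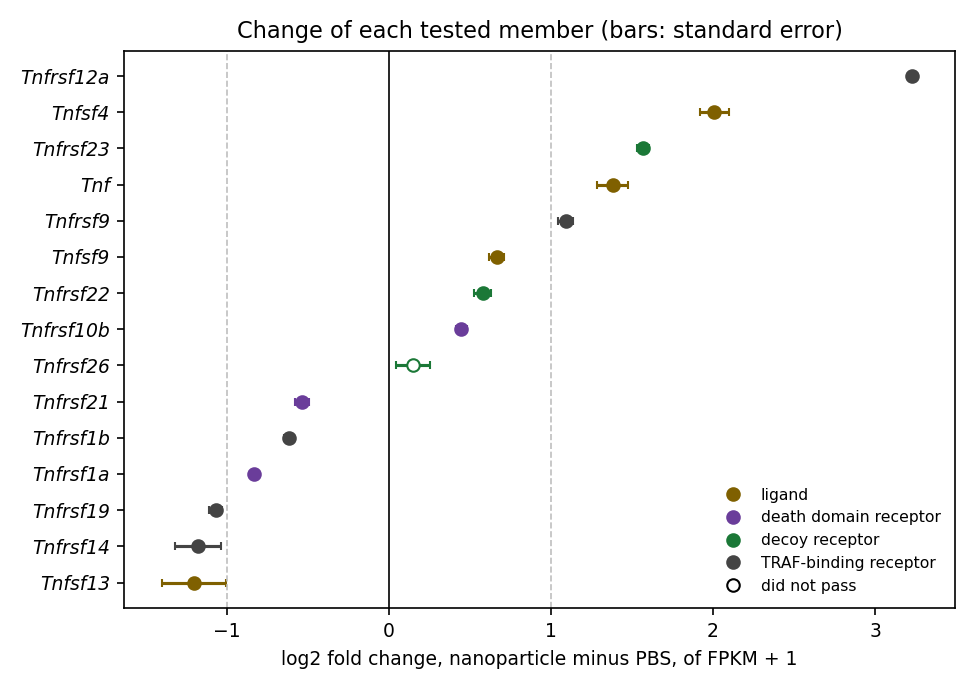
Log2 fold change of FPKM + 1, nanoparticle minus PBS, of the 15 tested members with standard errors, coloured by role. The values run from 3.23 for Tnfrsf12a to -1.20 for Tnfsf13, and the open symbol is Tnfrsf26, which did not pass. The filter fixed the direction of Tnf, Tnfsf4, Tnfsf13 and Tnfrsf14. Each role had more than 1 direction apart from the decoys, but among ligands only Tnfsf13 fell.

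The members that rose and those that fell overlapped widely in genomic span, at 2.02 to 31.5 kb and 2.94 to 82.6 kb. The median span was 15.9 kb for the 8 that rose and 23.3 kb for the 6 that fell, against 14.1 kb for all genes called higher and 43.8 kb for all called lower. The fallers include the short genes Tnfsf13 and Tnfrsf14, whose direction the filter fixed. Among members whose direction it did not fix, the median span of those that fell was above the 43.8 kb of all genes called lower. That of those that rose was again 15.9 kb. In the fit with the relation of fold change to span and exonic length removed, Tnfsf9 had a log2 fold change of 0.17, Tnfrsf10b of 0.16, Tnfrsf22 of 0.26 and Tnfrsf19 of -0.52, all still called. Tnfrsf12a stood at 2.81 and Tnfrsf1a at -1.16 in that fit.

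The order of levels differed between the groups. With PBS it ran from Tnfrsf12a (56.1 FPKM on average) and Tnfrsf1a (53.7 FPKM) to Tnfrsf1b and Tnfrsf19, whose ranges overlapped, then to Tnfrsf10b (28.0 FPKM). With nanoparticles it ran from Tnfrsf12a (534.5 FPKM) to Tnfrsf23 (52.4 FPKM), Tnfrsf10b (38.6 FPKM) and Tnfrsf1a (29.8 FPKM). Tnfsf9, Tnfrsf9 and Tnfrsf22 came next, at 28.4, 27.0 and 26.8 FPKM, and each overlapped its neighbour in that order.

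The remaining 17 members, 8 ligands and 9 receptors, did not reach the test. The highest value among them was 1.02 FPKM with nanoparticles (Tnfrsf4, the OX40 receptor, in library 2) and 0.870 FPKM with PBS (Tnfrsf18, the GITR receptor, in library 1). In 13 of the 17, every nanoparticle library was above every PBS library. Of all 9261 genes below the filter that were above 0 in some library, 48.9% showed this and 3.74% showed the reverse. Exact zeros in every PBS library were found for 5 of the 17, while 28.4% of the low genes were at 0 in all PBS libraries and above 0 in all nanoparticle libraries. These low values move with the larger number of genes above 0 in the nanoparticle libraries, and the part of that difference in them was not tested.

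Of the low ligands, Tnfsf18 (GITRL), the chromosome 1 neighbour of Tnfsf4 at a distance of 76.2 kb, had 0.523, 0.344 and 0.639 FPKM with nanoparticles and 0.0238, 0 and 0.0326 FPKM with PBS. Tnfsf11 (RANKL), which drives osteoclast formation, had 0.0985, 0.287 and 0.385 FPKM with nanoparticles and 0.0231, 0.0576 and 0 FPKM with PBS. Tnfsf8 (the CD30 ligand), Tnfsf13b (BAFF), Tnfsf14 (LIGHT) and Tnfsf15 (TL1A) stayed at or under 0.175 FPKM in every nanoparticle library and at or under 0.0348 FPKM in every PBS library.

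Of the low receptors, Tnfrsf4 had 0.785, 1.02 and 0.565 FPKM with nanoparticles and 0.157, 0.336 and 0.531 FPKM with PBS. Its neighbour Tnfrsf18, 9.55 kb away on chromosome 4, went the other way, with 0.241, 0.273 and 0.324 FPKM with nanoparticles and 0.870, 0.572 and 0.605 FPKM with PBS. Thus the OX40 pair and the GITR ligand were at higher values with nanoparticles and the GITR receptor at lower ones. The groups did not overlap in any of the 4 genes, though those of Tnfrsf4 were close, at 0.565 against 0.531 FPKM. Only Tnfsf4 was tested, and the filter fixed its direction. Of all low genes, 48.9% were higher and 3.74% lower with nanoparticles without overlap. The receptors of B cells and plasma cells, Tnfrsf13b (TACI) and Tnfrsf17 (BCMA), were at 0 in every PBS library and at or under 0.271 FPKM with nanoparticles. Tnfrsf13c (the BAFF receptor) overlapped between groups, as did Tnfrsf25. Tnfrsf8 (CD30) and Tnfrsf11a (RANK) stayed at or under 0.345 FPKM with nanoparticles and 0.0453 FPKM with PBS.

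**Figure D4:**
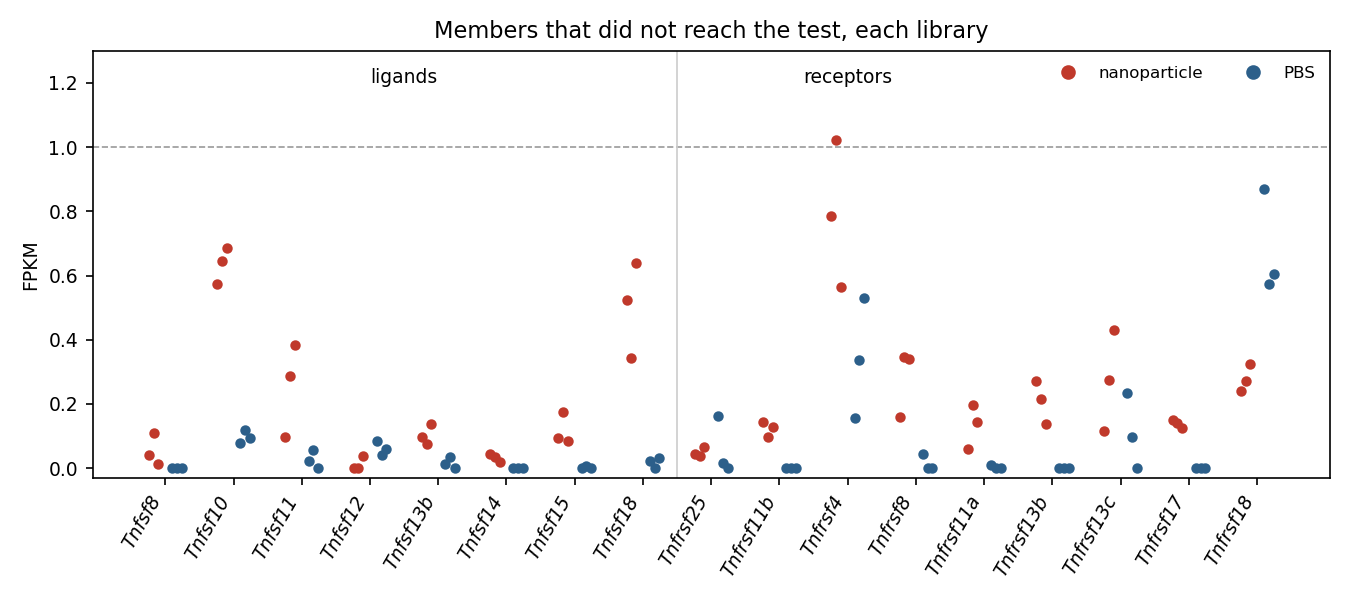
FPKM of the 17 members that did not reach the test in each library, nanoparticle (red) left of PBS (blue), with the filter level of 1 FPKM dashed. Most nanoparticle points lie above the PBS points, as 48.9% of all low genes did without overlap, and Tnfrsf18 and Tnfsf12 lie below.

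Further superfamily members carry other symbols, and 5 of these 14 genes were tested, with 2 higher, 2 lower and 1 that did not pass. The shares of all tested genes were 40.5% higher and 46.0% lower. Relt, a TRAF-binding receptor of lymphoid tissue, rose to 16.1, 15.3 and 15.3 FPKM with nanoparticles, against 1.38, 0.994 and 1.00 FPKM with PBS (log2 fold change 2.97 ± 0.0766 SE, adjusted p = 5.28e-10, limma). Cd40, the costimulatory receptor of antigen-presenting cells, rose to 7.89, 7.57 and 8.24 FPKM, against 2.04, 1.61 and 2.14 FPKM with PBS (log2 fold change 1.61, adjusted p = 3.55e-08, limma). Ltbr, the lymphotoxin beta receptor, averaged 14.4 ± 0.675 FPKM with nanoparticles and 28.1 ± 1.26 FPKM with PBS, and Fas, the death receptor of Fas ligand, averaged 14.2 ± 0.553 and 16.9 ± 0.806 FPKM (SD, n = 3 each). Their log2 fold changes were -0.92 and -0.24 (adjusted p = 5.12e-08 and 0.00107, limma). Ngfr, the p75 neurotrophin receptor, overlapped between groups at 19.8 ± 1.15 and 19.8 ± 0.722 FPKM (log2 fold change -0.00, adjusted p = 0.974, limma). The ligands Fasl, Lta, Ltb, Cd70, Cd40lg and Eda and the receptors Cd27, Edar and Eda2r stayed under 1 FPKM in every library.

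Of 28 adaptors and signalling proteins of TNF receptors, 26 were tested. Of these, 8 rose, 15 fell and 3 did not pass, where 40.5% of all tested genes rose and 46.0% fell. The adaptors' median log2 fold change was -0.14. The split was 5 higher and 16 lower on the TPM scale, and 9 higher and 11 lower once the relation to span and length was removed. Of all tested genes, 34.4% were higher and 52.7% lower on the TPM scale, and 37.5% and 46.5% in the other fit. Most changes were small. The largest were in Map3k5 (ASK1), a stress kinase upstream of JNK, at -2.19, Traip, a TRAF-interacting ubiquitin ligase of DNA replication, at 1.82, Ikbke at -0.81 and Traf5 at -0.78 on the log2 scale. Map3k5 averaged 3.32 ± 0.130 FPKM with nanoparticles and 18.8 ± 1.27 FPKM with PBS, and it spans 208 kb.

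In the death-inducing branch, 13 of 14 genes were tested, and 5 rose, 5 fell and 3 did not pass, with a median of -0.03. In the same fit, 40.5% of all tested genes were higher and 46.0% lower. Daxx, a FAS-binding and histone chaperone protein, rose by 1.81 and Pea15a, a death effector domain protein that restrains FADD signalling, rose by 0.88, while Dap3, a mitochondrial ribosome protein, had a log2 fold change of -0.52. Fadd and Casp8, the core of the death-inducing complex, did not pass, at log2 fold changes of -0.07 (adjusted p = 0.411, limma) and 0.13 (adjusted p = 0.0886, limma); these were named after their values were seen. Ripk1 is counted in this list and among the adaptors.

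Of 19 brakes and shedding enzymes, 17 were tested. Of these, 3 rose, 9 fell and 5 did not pass, where 40.5% of all tested genes rose and 46.0% fell. The median of this list was -0.11. The split was 5 higher and 9 lower with median-of-ratios scaling, and without nanoparticle library 1 it was also 5 and 9. Of all genes tested, 41.1% were higher and 45.3% lower with that scaling, and 38.8% and 46.3% without that library. Tnfaip3 (A20), the ubiquitin editor that shuts off NF-kB downstream of TNF receptors, rose by 2.40 on the log2 scale. The sheddases fell: Adam17, the TNF converting enzyme, averaged 28.7 ± 0.502 FPKM with nanoparticles and 65.6 ± 0.693 FPKM with PBS, and Adam10 averaged 14.1 ± 0.227 FPKM and 46.1 ± 0.354 FPKM (SD, n = 3 each). Their log2 fold changes were -1.17 and -1.64 (adjusted p = 4.20e-10 and 1.14e-10, limma), and the genes span 50.1 and 101 kb. Itch, a ubiquitin ligase that works with A20, had a log2 fold change of -1.30. Rhbdf2 (iRhom2), which carries ADAM17 to the cell surface, stood at -1.09 and was named after its value was seen.

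All 26 TNF- and NF-kB-induced genes of the list were tested, and 14 rose, 10 fell and 2 did not pass, with a median of 0.22. Over all tested genes the shares were 40.5% higher and 46.0% lower. Il6 rose by 4.31, Csf2 by 4.06 and Cxcl10 by 3.49, while Lcn2, the siderophore-binding lipocalin, had a log2 fold change of -2.92. Il6 had 24.0, 20.8 and 26.1 FPKM with nanoparticles and 0.128, 0.238 and 0.348 FPKM with PBS. Csf2 averaged 102.1 ± 2.05 FPKM with nanoparticles and 5.26 ± 0.997 FPKM with PBS (SD, n = 3 each). The filter fixed the direction of 2 of the 14 that rose, Il6 and Ptx3, which were under 1 FPKM in every PBS library. The list thus held large changes in both directions. These lists were chosen with earlier results of these data known, and their counts are read only beside the shares of all tested genes called in the same fit.

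**Figure D5:**
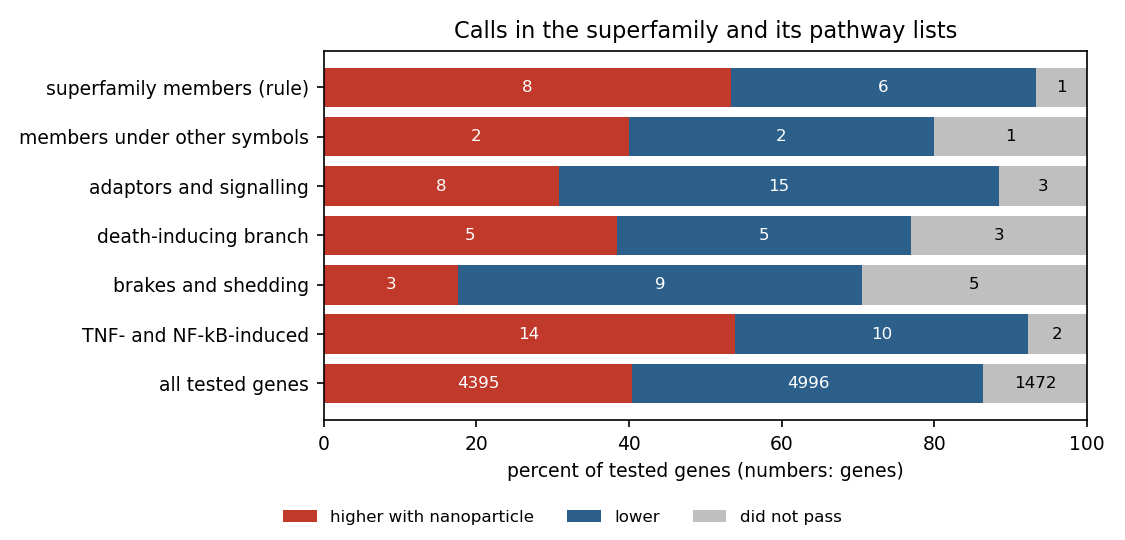
Percent of tested genes called higher (red), lower (blue) or not passing (grey) in the superfamily, in its 5 pathway lists and among all tested genes, with the number of genes in each segment. The superfamily had 8 higher and 6 lower of 15, and the adaptors had 8 higher and 15 lower of 26.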

How the data were processed

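RNA of 6 samples of 4T1 cells, 3 per group, was extracted with TRIzol and made into libraries by mRNA enrichment, fragmentation and PCR, per the labels' protocols. The authors deposited a table of FPKM values, a unit inferred from the values, since its header names none. STAR, featureCounts and the builds GRCm38 and mm10 are named in the submitters' processing notes, with no version or role; the annotation release and the use of strand are not given in those notes. Low values showed no steps of 1 read (at most 1.86% of ratios under 0.2 FPKM fell in any 1% bin), so the depth is unknown and values carry no counting intervals.

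The 701 features without a gene identifier, at most 0.670% of a library's summed FPKM, were left out. Values were put on the log2(FPKM + 1) scale. The limma package 3.58.1 (R 4.3.3, statmod 1.5.0; trend and robust settings, no replicate block) was run on genes reaching 1 FPKM in 3 or more libraries, nanoparticle minus PBS, two-sided, with Benjamini-Hochberg adjustment over 10863 genes and a threshold of 0.05. The fit was also run on simulated data with independent noise. Far fewer genes were changed there than were called here, so that run does not stand for this comparison. Positions are from GENCODE M21 (GRCm38), promoter windows from RefSeq (GRCm38.p6). Shared sequence was measured as stretches of 50 bases in GENCODE transcripts. Python 3.11.15, numpy 2.4.6, pandas 2.3.3 and matplotlib 3.10.9 were used. The members and lists were chosen with earlier results of these data known. Every tested member is named, those below the filter are named with their range, and of each pathway list the 4 called genes with the largest change are named, except a gene that is not reported here. The alternatives were other pseudocounts, filters, thresholds, scalings and priors, limma treat at 1.5-fold, replicate number as a block, leaving out each library, and, added after seeing the data, removal of the relation to genomic span and exonic length.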

Additional observations from a re-analysis of the deposited data

How the results depend on the processing

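Called members kept their direction and their call under a pseudocount of 0.1, the threshold of 0.01, both other scalings, a fit without trend or robust settings and a replicate block, wherever they were tested. On the TPM scale the median log2 fold change of all tested genes was -0.21, against -0.06 as reported. With no filter, all 32 members were tested, and 20 were higher and 8 lower, where 42.0% of 20124 genes were higher and 26.0% lower. Against a 1.5-fold change 4194 of the 10863 genes were called (17.1% higher, 21.6% lower), and 5 members were higher and 4 lower. These members include Tnf, Tnfsf4, Tnfsf13 and Tnfrsf14, whose direction the filter fixed. In that fit Tnfsf9, Tnfrsf10b, Tnfrsf22, Tnfrsf1b and Tnfrsf21 no longer passed. Once the relation to span and length was removed, Tnfrsf26 reversed to -0.08 and Tnfrsf21 no longer passed. Without any 1 library, 13 members were tested, and those called higher numbered 6 to 9 and those called lower 4 to 6. Of all genes tested in those fits, 38.4% to 40.7% were higher and 43.9% to 46.6% lower. Tnf and Tnfsf4 fall below the filter without a nanoparticle library and Tnfsf13 and Tnfrsf14 without a PBS library. The count of 9 arose without PBS library 1, where Tnfrsf26 also passed as higher.

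Against a 1.5-fold change, the lists had 2 adaptors higher and 3 lower, 2 death branch genes higher and 0 lower, 1 brake or shedding gene higher and 4 lower, 7 induced genes higher and 6 lower, and 2 members under other symbols higher and 1 lower. On the TPM scale 5 adaptors were higher, where 34.4% of all tested genes were. Brakes and shedding genes called higher numbered 5 with median-of-ratios scaling and 5 once the relation to span and length was removed. They numbered 3 to 5 without any 1 library. Of all genes tested, 41.1%, 37.5% and 38.4% to 40.7% were higher in those fits. Members under other symbols called higher numbered 6 with no filter and 1 with a mean of at least 5 FPKM. Of all genes tested, 42.0% and 43.4% were higher there. The cause of these shifts in the lists was not tested, beyond the number of genes tested.

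Same-numbered libraries did not deviate together (correlations -0.0141, -0.0428 and 0.0411). These values gave no sign of pairing by number, but they cannot show whether same-numbered samples were handled together. With the replicate block 8 members were higher and 6 lower, as without it, where 40.4% and 45.9% of all tested genes were.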
